A study of Mus musculus with 18 samples.

Results

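Transcript levels of 10 genes of TGF-β and BMP signalling were followed through heat shock (HS) and tunicamycin (Tu) in mouse fibroblasts. The genes were taken by name: the Id genes Id1, Id2, Id3 and Id4, the inhibitory Smad genes Smad6 and Smad7, and the ligand genes Bmp4, Tgfb1, Tgfb2 and Tgfb3. They are 10 of the 20207 genes listed, and all 10 were among the 12731 genes tested, those with at least 1 read in each of 18 samples. All samples came from NIH3T3, an established fibroblast line, which stably expressed DD-GFP, a destabilized protein domain fused to green fluorescent protein. The methods describe lines with stably integrated constructs sorted for high GFP, and the cells were kept with the ligand S1, which stabilizes the domain, in every group used here, the control included. The 6 groups held 3 samples each: the unstressed control at 0 min, HS at 45 and 135 min, and Tu at 45, 135 and 405 min. No unstressed sample of 45, 135 or 405 min was among them. A change against the control, or between times of the same stress, therefore cannot be told apart from one with elapsed time or handling. Rises and falls below are meant in this sense. Tunicamycin blocks N-glycosylation and so evokes the unfolded protein response of the endoplasmic reticulum, and no sample of HS at 405 min was analysed here.

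Ligands of this family bind pairs of receptor kinases at the cell surface, which phosphorylate Smad proteins. BMP receptors act mainly on Smad1, Smad5 and Smad9, and TGF-β receptors mainly on Smad2 and Smad3, and both kinds join Smad4 and enter the nucleus. Id genes are the best known targets of the BMP branch, and their proteins bind E proteins and keep these from DNA. Smad6 and Smad7 are induced by the pathway and inhibit it, Smad6 chiefly in the BMP branch and Smad7 in both. The 3 TGF-β ligands are secreted in a latent form, and fibroblasts are both a source and a responder.

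The samples held 33415592 to 66478268 reads on genes. The floor of detection was set at 3 reads, which corresponded to 0.0451 to 0.0898 CPM (counts scaled to the library total) and covers counting error only. Known responders to the treatments were checked first. Hspa1b, a heat-inducible HSP70, had log2 fold changes of 4.99 at 45 min of HS (adjusted p = 0.192, edgeR) and 7.25 at 135 min (adjusted p = 0.0058, edgeR). Hsph1, an HSP110, had 1.10 (adjusted p = 0.227, edgeR) and 3.33 (adjusted p = 0.00792, edgeR). With Tu, Hspa5, the chaperone BiP, passed at 405 min (3.73) and not at 45 min (0.45) or 135 min (-0.72, with all samples below the control), and Ddit3, the factor CHOP, passed at 45 min (2.92) and 405 min (5.21) and not at 135 min (1.54). The summed RPKM (reads scaled to gene length and library total) of 8 fibroblast markers, none of them at 0, was 9150 to 9636 in the control and 4324 to 4823 at 405 min of Tu. It was 10340 to 11610 at 45 min and 10290 to 12050 at 135 min of HS. At 45 and 135 min of Tu it was 7636 to 9025 and 8501 to 9668. Epithelial, endothelial and muscle markers summed to at most 0.449, 0.180 and 0.416 RPKM in any sample. Of the 4 blood and macrophage markers Cd68 reached 3.72 to 7.61 RPKM while Emr1 was at 0 in every sample, and of the 2 fat markers Fabp4 reached at most 5.11. Some samples stood apart. Of the spread between samples of the same group, 74.0% lay on 1 axis, which followed the GC content of transcripts (absolute Spearman's rho of 0.695 across genes, which are not independent replicates). Sample 3 of HS at 45 min lay at one end of it (-0.506), with sample 1 of HS at 135 min (-0.372), and sample 2 of HS at 135 min lay at the other (0.458). The members' transcripts were GC-rich for the most part, from 42.4% in Id2 and 47.5% in Tgfb2 to 61.8% in Smad6 and 62.5% in Tgfb1, against a median of 50.6% over the genes tested.

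In the control the 10 genes spanned a wide range of levels per length. Id3 and Id1 were the highest, at 74.6 ± 5.70 and 63.6 ± 15.8 RPKM (SD, n = 3), and their ranges overlapped. Id2 followed at 25.1 ± 3.92 RPKM (SD, n = 3). Of the TGF-β ligands, Tgfb3 stood at 16.4 ± 0.746 and Tgfb1 at 12.7 ± 0.752 RPKM (SD, n = 3), each apart from its neighbours in the order. The inhibitory Smads were lower, Smad7 at 5.69 ± 0.331 and Smad6 at 4.35 ± 0.730 RPKM (SD, n = 3). Id4 had 2.47 ± 0.346 and Tgfb2 2.12 ± 0.227 RPKM (SD, n = 3), with overlapping ranges, and Bmp4 had 0.146 ± 0.0608 RPKM (SD, n = 3). The Id genes are compact, and in mm9 Id1 spans 1137 bases of chromosome 2 (152562010 to 152563146) and Id3 1571 bases of chromosome 4 (135699737 to 135701307). Id2 lies on chromosome 12 (25778664 to 25780957), and so does Tgfb3 (87397694 to 87419991). Id4 lies on chromosome 13 (48356796 to 48359405), Smad6 on chromosome 9 (63800884 to 63869866), Bmp4 on chromosome 14 (47003196 to 47010274), Tgfb1 on chromosome 7 (26472021 to 26490015) and Tgfb2 on chromosome 1 (188447065 to 188529871).

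Id2, Id3 and Id4 followed different courses below, and the 250 bases before their starts are shown so that they can be compared. The sequences are RefSeq's on GRCm38.p6, at chr12:25096093-25096342 on the minus strand, chr4:136143572-136143821 on the plus strand and chr13:48260866-48261115 on the plus strand, and are written 5′ to 3′ along the gene. Capitals mark 2 motifs known to be bound by Smad proteins, GGCGCC in Id2 and Id4, and in Id3 the shorter GTCTG, which reads CAGAC where it lies on the other strand.
Id2: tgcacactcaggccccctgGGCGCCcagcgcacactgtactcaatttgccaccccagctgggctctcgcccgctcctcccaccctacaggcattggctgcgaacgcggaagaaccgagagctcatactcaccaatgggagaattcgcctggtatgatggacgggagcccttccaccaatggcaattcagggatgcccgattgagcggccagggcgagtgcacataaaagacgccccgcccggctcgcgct
Id3: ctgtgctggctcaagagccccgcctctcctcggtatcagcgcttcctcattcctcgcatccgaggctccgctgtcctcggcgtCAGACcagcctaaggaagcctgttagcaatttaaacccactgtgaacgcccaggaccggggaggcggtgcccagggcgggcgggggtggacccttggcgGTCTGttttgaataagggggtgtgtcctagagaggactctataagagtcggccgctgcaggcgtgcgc
Id4: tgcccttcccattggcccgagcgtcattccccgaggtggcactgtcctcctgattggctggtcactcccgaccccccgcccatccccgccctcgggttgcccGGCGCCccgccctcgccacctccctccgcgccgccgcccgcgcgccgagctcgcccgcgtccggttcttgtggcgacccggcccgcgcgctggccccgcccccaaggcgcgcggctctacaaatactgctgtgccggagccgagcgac
Promoters were at hand for 7 of the 10 genes, not for Id1, Smad7 or Tgfb3. GGCGCC was found in Id2, with its first base at -231 from the start, and in Id4, at -148, and 9.59% of the 32851 promoters of the same length hold it. GTCTG was found in Id3, at -167 and -68, and in Tgfb2, and 42.2% of all promoters hold it. CACGTG, a form of the E-box, was found in Tgfb2 and Bmp4, and 6.02% of all promoters hold it. Other forms of the E-box were not searched. Neither TGACGTCA, the cyclic AMP response element, nor GAANNTTC, a heat shock element, was found in the 7, while 1.55% and 6.69% of all promoters hold them. Both strands were searched, no matches overlapped, and a match is a description of these letters only.

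**Figure D1:**
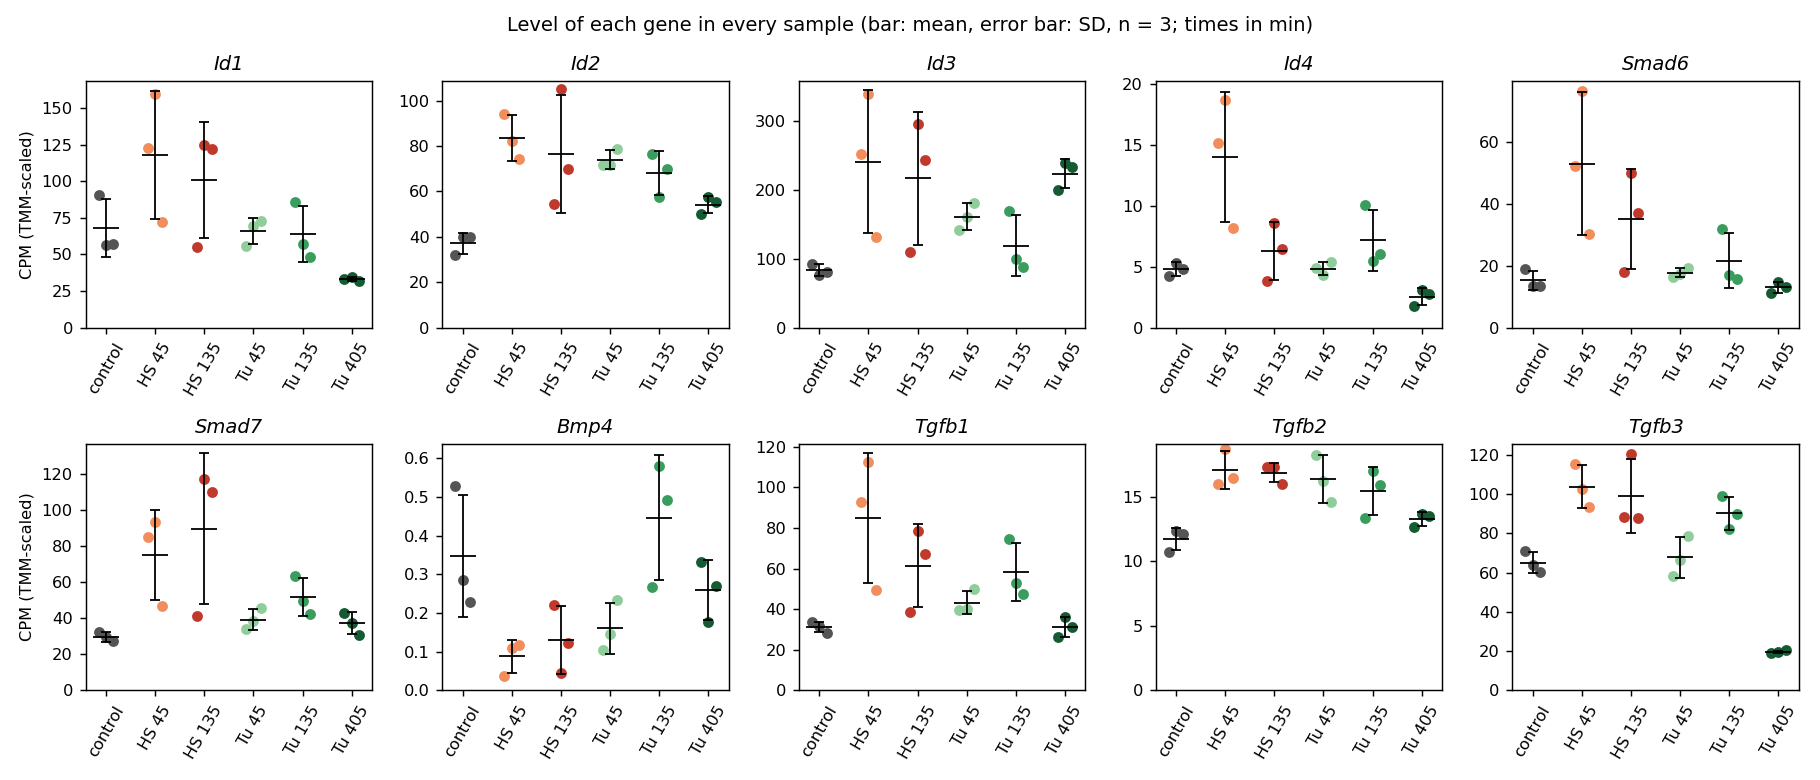
Level of each of the 10 genes in every sample, in CPM scaled by TMM, against the 6 groups (times in min). Points are samples, bars are means and error bars are SDs (n = 3). At 405 min of Tu, Id3 is high and Id1 and Tgfb3 are low, and Bmp4 is under 0.6 CPM in every sample.

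At 45 min of HS, 9 of the 10 genes had higher mean levels than in the control, and no difference passed the test. Id3 was at 252, 339 and 132 CPM in samples 1, 2 and 3, against 93.0, 75.7 and 81.4 CPM in the control. All 3 heated samples lay above all 3 control samples, and sample 3 was the lowest of the heated ones. The log2 fold change was 1.53 (SE 0.344, adjusted p = 0.227, edgeR). Smad6, the BMP branch inhibitor, was at 52.3, 76.3 and 30.1 CPM against 18.8, 13.3 and 13.5 CPM. Its groups did not overlap either, and sample 3 was again the lowest (log2 fold change 1.80, SE 0.366, adjusted p = 0.227, edgeR). Smad7 was at 84.8, 93.5 and 46.8 CPM against 32.6, 29.4 and 27.0 CPM (1.34, SE 0.292, adjusted p = 0.227, edgeR). Id4 was at 15.1, 18.7 and 8.16 CPM against 4.24, 5.32 and 4.83 CPM, and Tgfb1, the most studied of the ligands, at 92.8, 112 and 49.6 CPM against 33.5, 31.9 and 28.2 CPM. Both were apart from the control in every sample, with log2 fold changes of 1.54 and 1.44. Id2 varied least among the Id genes under heat, with 94.1, 82.3 and 74.3 CPM against 31.9, 40.0 and 39.9 CPM (1.17, SE 0.208, adjusted p = 0.227, edgeR). Tgfb3 and Tgfb2 were nearer to the control, with log2 fold changes of 0.68 and 0.54, and did not overlap with it. Id1 was the exception among the Id genes, since its 122.9, 160 and 72.3 CPM overlapped with the control's 91.0, 56.4 and 57.4 CPM (0.79, adjusted p = 0.256, edgeR). Bmp4, the only BMP ligand of the set, was close to the floor of 3 reads, and below it in sample 1. It had 2 to 8 estimated reads a sample (0.0382, 0.109 and 0.116 CPM) against 10 to 21 in the control (0.527, 0.286 and 0.229 CPM). The log2 fold change was -1.93 (SE 0.538, adjusted p = 0.227, edgeR).

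Across the 10 genes, 8 had all heated samples above all control samples and 1, Bmp4, had all below, where 12.5% and 12.8% of all genes tested did. The median log2 fold change was 1.25, against -0.03 over all genes tested. The quasi-likelihood test called 0 of the 10, as it called 0.0% of all genes tested in either direction. At an unadjusted p under 0.05, 9 were higher and 1 lower, and DESeq2 and edgeR's exact test each called 6, all higher. Sample 3, which stood apart on the GC axis, was the lowest of its group for 8 of the 10 genes. Without it all 10 passed, 9 higher and 1 lower, while 21.5% of all genes tested then passed as higher and 23.9% as lower, and without any other sample none did. With an offset for GC content the median of the 10 fell to 0.89, against -0.01 over all genes tested. With that offset 0 of the 10 and 0.0% of all genes tested passed, the same counts as without it.

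**Figure D2:**
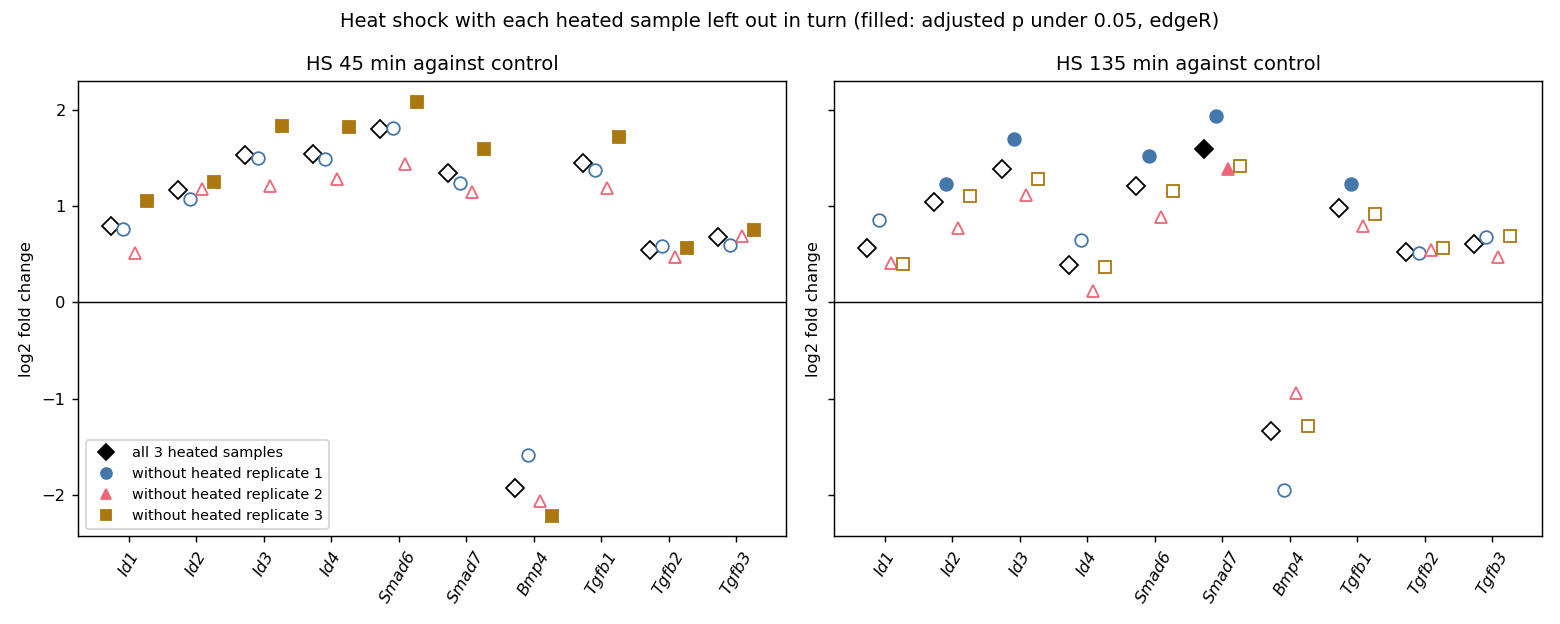
Log2 fold change of each gene under HS against the control with all 3 heated samples and with each heated sample left out in turn, at 45 and 135 min. Filled symbols have an adjusted p under 0.05 (edgeR); at 45 min all 10 genes are filled only without sample 3, and at 135 min 5 genes are filled without sample 1 against 1 with all samples.

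At 135 min of HS, Smad7 rose and was the only member past the test. The gene (chromosome 18, 75527019 to 75555588) was at 41.3, 117 and 110 CPM in samples 1, 2 and 3, against 32.6, 29.4 and 27.0 CPM in the control. All heated samples were above all control samples, but sample 1 was far nearer to the control than the others. The rise was 1.59 on the log2 scale (SE 0.380, adjusted p = 0.0458, edgeR). It is a call near the threshold, lost without any 1 of the 3 control samples or without sample 3 of HS (log2 fold change of 1.38 to 1.94 over the 6 fits, adjusted p up to 0.187). Id3, with 110, 296 and 244 CPM, and Id2, with 54.6, 105 and 69.8 CPM, lay above the control in every sample. Their log2 fold changes were 1.38 (SE 0.351, adjusted p = 0.0532, edgeR) and 1.04 (SE 0.277, adjusted p = 0.0591, edgeR), just outside the threshold. Smad6 was at 17.9, 49.9 and 37.1 CPM, and its sample 1 fell inside the control's range (1.203, adjusted p = 0.0857, edgeR). Tgfb1 was at 38.8, 78.7 and 67.0 CPM, above the control in every sample (0.98, adjusted p = 0.0704, edgeR). Tgfb3 and Tgfb2 were also above it in every sample, with log2 fold changes of 0.61 and 0.53. Id1, at 55.0, 125 and 122.5 CPM, and Id4, at 3.80, 8.60 and 6.40 CPM, overlapped with the control, with log2 fold changes of 0.56 and 0.38. Bmp4 had 0.221, 0.0443 and 0.123 CPM, the lowest of them 2 estimated reads and so below the floor (-1.33, adjusted p = 0.162, edgeR).

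The 1 call among 10 stands beside 4.75% of all genes tested called as higher and 2.64% as lower. Of the 10 genes, 6 lay above the control in every sample and 1 below, where 18.1% and 19.0% of all genes tested did, and the median log2 fold change was 0.79 against -0.02. At an unadjusted p under 0.05, 7 were higher and 1 lower, and DESeq2 and the exact test each called 5. Sample 1, on the same side of the GC axis as sample 3 at 45 min, was the lowest of its group for 7 of the 10 genes, and without it 5 were called, with 12.1% of all genes called as higher. With the offset for GC content 6 were called, Smad7, Id2, Id3, Smad6, Tgfb2 and Tgfb3, all higher, with 11.3% of all genes called as higher. The median of the 10 was then 0.62. Between 45 and 135 min of HS no member differed by the test, nor did any other gene (0.0% called), and 1 member was lower at an unadjusted p under 0.05. DESeq2 and the exact test also called none of the 10. Smad7 was 0.20 higher at 135 min on the log2 scale (SE 0.447), a direction that turned without sample 3 of the earlier group (-0.05) or sample 2 of the later one (-0.01).

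At 45 min of Tu, Id2 and Id3 rose, while the log2 fold changes of Id1 and Id4 were far smaller than their errors. Id2 was at 71.6, 71.5 and 78.9 CPM, against 31.9, 40.0 and 39.9 CPM in the control. The groups were far apart, and the 3 treated samples lay close together. The rise was 1.004 on the log2 scale (SE 0.137, adjusted p = 0.0101, edgeR). Id3 was at 142, 161 and 182 CPM against 93.0, 75.7 and 81.4 CPM, again without overlap, a rise of 0.97 (SE 0.140, adjusted p = 0.0121, edgeR). In contrast Id1, at 56.0, 69.4 and 73.2 CPM, overlapped with the control (-0.03, SE 0.212), and Id4 was at 4.86, 4.32 and 5.34 CPM (0.02, SE 0.174). Both calls were lost without control sample 2, control sample 3 or sample 2 of Tu (adjusted p of up to 0.0874), with little change in the fold (0.89 to 1.05). Tgfb1, Smad7 and Tgfb2 lay above the control in every sample without passing the test, Tgfb2 with a log2 fold change of 0.50 (adjusted p = 0.101, edgeR). Bmp4 was at 0.104, 0.146 and 0.233 CPM, 7 to 11 estimated reads (-1.11, SE 0.434, adjusted p = 0.159, edgeR). The log2 fold changes of the other 6 members ranged from -0.03 to 0.48.

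The 2 calls among 10 stand beside 4.01% of all genes tested called as higher and 2.17% as lower. Of the members, 5 lay above the control in every sample and none below, where 17.2% and 16.0% of all genes did, and the median log2 fold change was 0.32 against -0.00375. At 135 min of Tu none of the 10 passed the quasi-likelihood test, which called 0.126% of all genes as higher and 0.00785% as lower, and 4 were higher at an unadjusted p under 0.05. DESeq2 and the exact test each called 3, Id2, Smad7 and Tgfb1. Id2 was at 76.7, 57.7 and 70.0 CPM (0.88, SE 0.184, adjusted p = 0.0969, edgeR), with no overlap with the control. Tgfb1 was at 74.4, 52.6 and 47.6 CPM (0.91, SE 0.206, adjusted p = 0.114, edgeR) and Smad7 at 63.3, 49.6 and 42.5 CPM (0.82, SE 0.197, adjusted p = 0.122, edgeR), both above the control in every sample. Sample 1 was the highest of its group for 8 of the 10 genes. Id4, Id3 and Smad6 had log2 fold changes of 0.59, 0.53 and 0.52, and the other 4 members ranged from -0.08 to 0.49. Id3, at 170, 99.95 and 87.8 CPM, overlapped with the control, as did Smad6. Of the 10, 6 lay above the control in every sample and none below, where 13.7% and 13.6% of all genes did, and the median was 0.52 against -0.00287.

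**Figure D3:**
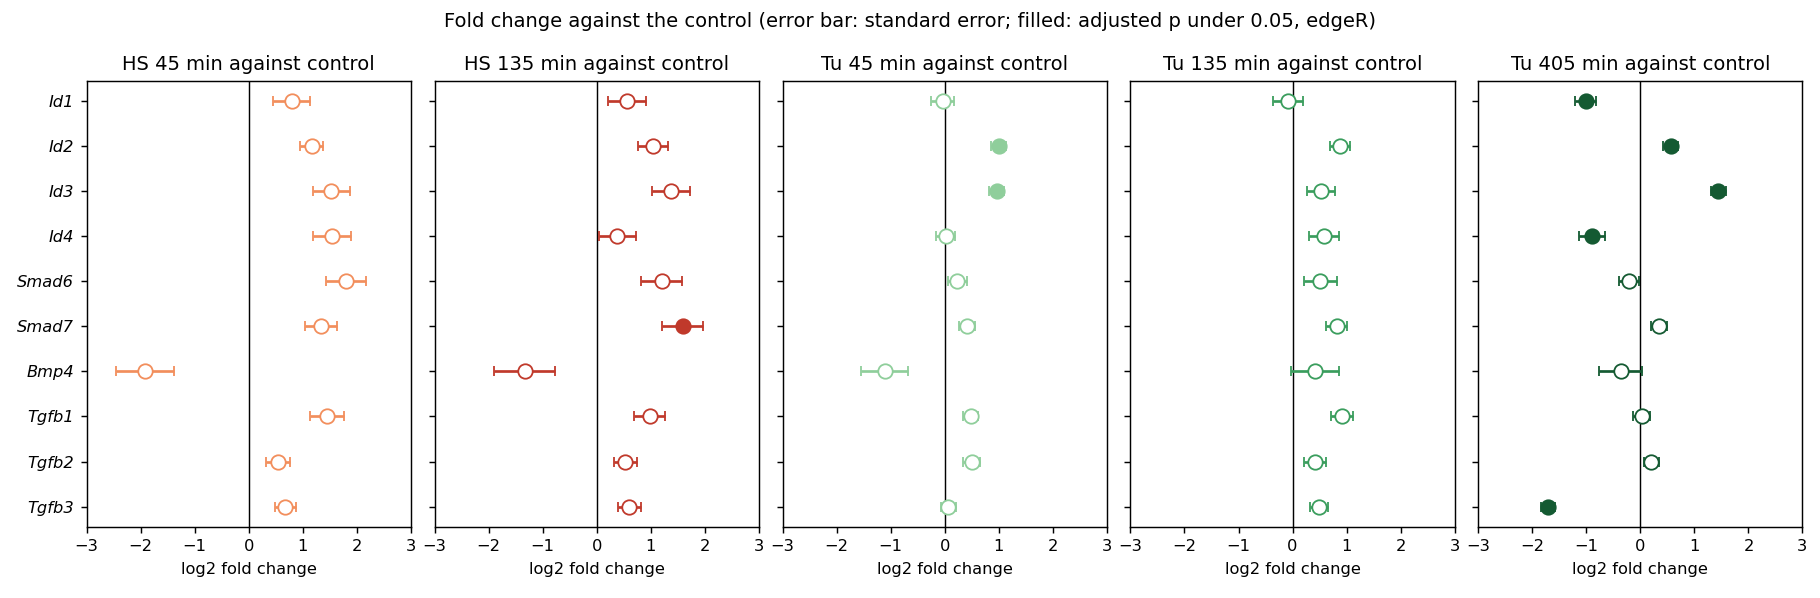
Log2 fold change of each gene against the control in the 5 stressed groups, with its standard error. Filled points have an adjusted p under 0.05 (edgeR); at 405 min of Tu, Id3 and Id2 are filled on the higher side and Id1, Id4 and Tgfb3 on the lower side.

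By 405 min of Tu the family had split. Id3 and Id2 were higher than in the control, Id1, Id4 and Tgfb3 were lower, and the other 5 members did not pass the test. Tgfb3 was at 18.9, 19.6 and 20.3 CPM, against 70.8, 63.9 and 60.3 CPM in the control. The treated samples lay close to one another and below every sample of the other 5 groups. Tgfb3 fell by 1.71 on the log2 scale (SE 0.125, adjusted p = 4.3e-05, edgeR), the smallest p of the 10. Id3 was at 199, 238 and 233 CPM against 93.0, 75.7 and 81.4 CPM, with no overlap, and rose by 1.45 (SE 0.139, adjusted p = 0.00014, edgeR). Id1 was at 33.3, 34.5 and 32.1 CPM against 91.0, 56.4 and 57.4 CPM. Its treated samples agreed closely and lay below every sample of the other groups, and the fall was -1.02 (SE 0.200, adjusted p = 0.00405, edgeR). Id2 was at 49.95, 57.3 and 55.2 CPM against 31.9, 40.0 and 39.9 CPM, a smaller rise of 0.56 (SE 0.136, adjusted p = 0.0102, edgeR), lost without sample 2 of Tu (adjusted p = 0.0521). Id4 was at 1.73, 3.09 and 2.77 CPM against 4.24, 5.32 and 4.83 CPM (-0.90, SE 0.237, adjusted p = 0.0147, edgeR). The calls of Id1, Id3, Id4 and Tgfb3 were kept in all 6 fits that left out 1 sample. Tgfb1, at 26.4, 36.1 and 31.2 CPM, overlapped with the control (0.02, SE 0.153), as did Smad6 and Smad7, and the log2 fold changes of the 5 members that did not pass ranged from -0.37 to 0.34.

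The 2 rises and 3 falls among 10 genes stand beside 23.3% of all genes tested called as higher and 23.5% as lower, so the number of calls is near the background. All samples lay above the control in 3 members and below it in 3, where 29.2% and 29.5% of all genes did, and the median log2 fold change was -0.09 against -0.01. The summed level of the fibroblast markers was also lower at this time. All samples came from the same cell line. In bulk samples, fewer cells expressing the markers and less of their RNA per cell cannot be told apart. The part of this in the falls of Id1, Id4 and Tgfb3 was not tested.

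The opposite courses of Id1 and Id3 can be read within a sample, where the scaling between samples cancels. Differences that follow the GC content of transcripts need not cancel. It was 54.7% in Id1, 55.6% in Id3, 42.4% in Id2, 62.5% in Tgfb1 and 53.0% in Tgfb3, and its part in the ratios was not tested. The ratio of Id3 to Id1, in RPKM, was 0.977, 1.28 and 1.36 in the 3 control samples. It was 5.72, 6.62 and 6.94 at 405 min of Tu, with a geometric mean of 6.41 against 1.19. The ratio was also above every control sample in the other 4 stressed groups, with geometric means of 1.91 and 2.02 at 45 and 135 min of HS and 2.33 and 1.76 at 45 and 135 min of Tu. In each of the 5 groups the exact two-sided permutation test gave p = 0.1, the smallest that 3 samples against 3 allow. The ratio of Id2 to Id1 went from a geometric mean of 0.399 in the control to 0.805, 0.780 and 1.16 at 45, 135 and 405 min of Tu, without overlap, and overlapped with the control under HS. Tgfb1 and Tgfb3, which encode ligands for the same receptors, stood in another order at the end than in the control. The ratio of Tgfb1 to Tgfb3 was 0.764, 0.807 and 0.757 in the control and 2.25, 2.98 and 2.48 at 405 min of Tu (exact permutation p = 0.1, two-sided), so that Tgfb3 had the higher level per length in the control and Tgfb1 at 405 min. In between, the geometric mean was 1.25 at 45 min of HS, 1.03 at 45 min and 1.02 at 135 min of Tu (each p = 0.1 by the same test), and 0.973 at 135 min of HS, where the samples overlapped with the control (p = 0.4, exact permutation test). In each HS group the lowest ratio of Tgfb1 to Tgfb3 was in the sample low on the GC axis, sample 3 at 45 min (0.857) and sample 1 at 135 min (0.710). A total of 20 such ratios were compared, and none can pass a corrected threshold at this number of samples.

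**Figure D4:**
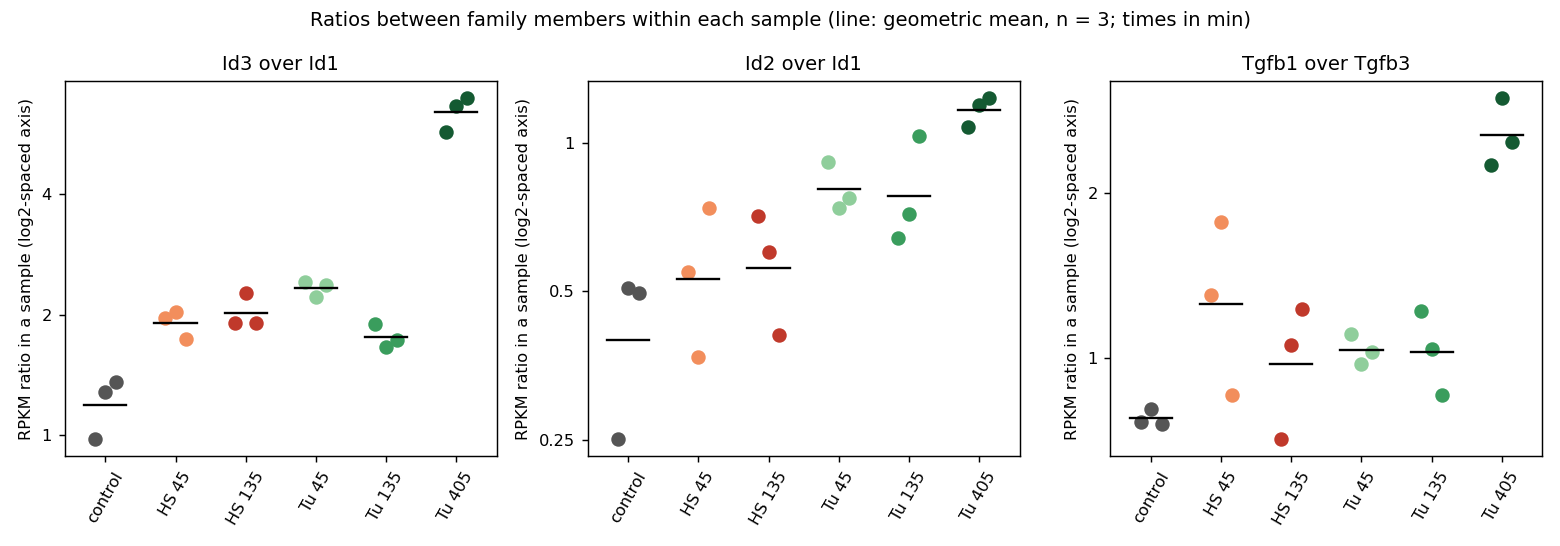
Ratios of RPKM between family members within each sample, on a log2-spaced axis, against the 6 groups (times in min). Points are samples and lines are geometric means (n = 3); Id3 over Id1 is 0.977 to 1.36 in the control and 5.72 to 6.94 at 405 min of Tu.

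The last interval of the Tu course was tested directly. From 135 to 405 min Id1, Id4, Tgfb1 and Tgfb3 fell and Id3 rose. Tgfb3 went from 98.8, 82.1 and 90.0 CPM to 18.9, 19.6 and 20.3 CPM, a change of -2.23 (SE 0.134, adjusted p = 4.79e-05, edgeR). Id4 went from 10.04, 5.44 and 6.05 CPM to 1.73, 3.09 and 2.77 CPM (-1.52, SE 0.316, adjusted p = 0.00661, edgeR). In both the groups were apart. Id1 changed by -0.96 (SE 0.212, adjusted p = 0.00851, edgeR) and Tgfb1 by -0.92 (SE 0.207, adjusted p = 0.00947, edgeR), which brought Tgfb1 back to 31.2 ± 4.86 CPM, the control's mean being 31.2 ± 2.69 CPM (SD, n = 3). Id3 rose by 0.89 (SE 0.249, adjusted p = 0.0228, edgeR), a call that remained in 1 of the 6 fits without a sample, the one without sample 1 of 135 min, and was lost in the other 5 (adjusted p up to 0.0776). Id2, which had passed against the control, changed by -0.35 (adjusted p = 0.0910, edgeR). The 1 rise and 4 falls stand beside 21.4% and 22.4% of all genes tested. Between 45 and 135 min of Tu no member passed (0.291% of all genes did), 2 were higher at an unadjusted p under 0.05, and DESeq2 and the exact test also called none. Id2 and Id3 differed there by -0.12 (SE 0.140) and -0.44 (SE 0.248), and the sign for Id2 turned with the GC offset.

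HS and Tu were also compared with each other at the times they share. At 45 min no member passed the test (0.204% of all genes did), 6 were higher under HS at an unadjusted p under 0.05, DESeq2 called 4 and the exact test 2. Id2 and Id3, which rose with Tu, differed by 0.17 (SE 0.152) and 0.58 (SE 0.336) in favour of HS, and for Id2 the sign turned when total counts were used without TMM. Without sample 3 of HS, 7 members passed as higher under HS, with 26.8% of all genes. At 135 min none of the 10 passed (2.12% of all genes did), 1 was lower under HS at an unadjusted p under 0.05, DESeq2 called none and the exact test 1 as lower. Smad7 was 0.76 higher under HS (SE 0.392, adjusted p = 0.336, edgeR). By the quasi-likelihood test no member was thus shown to differ between the stresses. All 5 comparisons with the control used the same 3 control samples, so their values are not independent of each other.

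The other genes of the pathway were counted in lists by role, 73 genes of which 59 were tested. The lists were chosen with earlier results known, and no test was made of a list. At 45 min of HS and at 135 min of Tu none of the 59 passed. The test called 6 as higher and 5 as lower at 135 min of HS, 10 and 2 at 45 min of Tu, and 7 and 31 at 405 min of Tu, with a median log2 fold change of -0.56 against -0.01 over all genes tested. Over all genes tested these shares were 4.75% and 2.64% at 135 min of HS, 4.01% and 2.17% at 45 min of Tu, and 23.3% and 23.5% at 405 min of Tu. None of the 59 was higher and 33 were lower at 405 than at 135 min of Tu, where 21.4% and 22.4% of all genes were.

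Among receptors, 1 of 11 was higher and 8 were lower at 405 min of Tu, beside 23.3% and 23.5% of all genes tested. Tgfbr2, the type II receptor that binds TGF-β, fell from 73.3 ± 5.11 to 33.7 ± 2.72 CPM (SD, n = 3; -1.10, adjusted p = 0.000302, edgeR). Tgfbr3, the co-receptor betaglycan, fell from 139 ± 39.3 to 30.8 ± 10.2 CPM (SD, n = 3; -2.16, adjusted p = 0.000518, edgeR). Acvr1, a type I receptor of the BMP branch, was the 1 that rose, by 0.67, and it also rose at 45 min of Tu, by 0.70. Of the 4 other ligands tested 3 were lower at 405 min, among them Gdf11 (-1.18) and Gdf5 (-2.23, at 0.0838 ± 0.0458 CPM against 0.418 ± 0.117 CPM in the control, SD, n = 3, near the floor). Of the 6 receptor-activated and common Smads, Smad1 and Smad9 of the BMP branch rose at 135 min of HS, by 1.60 and 1.41, and Smad3 and Smad1 rose at 45 min of Tu, by 0.81 and 0.71. At 405 min 1 of the 6, Smad5, was lower (-0.77).

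Intracellular regulators moved both ways. Ski, a corepressor of Smads, rose by 1.21 at 135 min of HS, and its relative Skil rose by 1.06 at 45 min of Tu, as did the ubiquitin ligase gene Nedd4l, by 0.60. At 405 min 2 of 10 were higher and 5 lower (23.3% and 23.5% of all genes), with the corepressor Tgif1 up by 1.03 and the ubiquitin ligase Smurf1 by 0.47, and the pseudoreceptor Bambi (-0.95) and the ubiquitin ligase Smurf2 (-1.23) down. Of the 13 antagonists and latency proteins, 3 were higher and 8 lower at 405 min, against the same shares of all genes. Thbs1, whose product thrombospondin-1 can activate latent TGF-β, fell from 913 ± 228 to 84.7 ± 20.1 CPM (SD, n = 3; -3.41, adjusted p = 3.94e-05, edgeR). It was also lower at 135 min of HS (-1.49). Genes of BMP antagonists rose, Grem1 by 1.46 at 45 min and 0.67 at 405 min of Tu, and Chrd by 0.92 at 405 min.

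Of the 12 other target genes tested, 3 rose and 3 fell at 135 min of HS, 4 rose and 2 fell at 45 min of Tu, and 1 rose and 6 fell at 405 min. The shares of all genes that rose and fell were 4.75% and 2.64%, 4.01% and 2.17%, and 23.3% and 23.5% in the same order. Bhlhe40 and Atoh8, which encode basic helix-loop-helix factors, rose by 1.96 and 1.89 at 135 min of HS and by 0.99 and 0.998 at 45 min of Tu. Ctgf, a classical TGF-β target, fell in all 3 (-1.44 at 135 min of HS, -0.67 at 45 min and -2.04 at 405 min of Tu). Hmga2, an architectural chromatin protein, was lower at 135 min of HS (-1.44). Snai2, a transcriptional repressor, was the 1 that rose at 405 min, by 1.03. None of the 3 E proteins that Id proteins bind passed the test against the control, where their medians were 0.02 and 0.34 at 45 and 135 min of HS and 0.26, 0.24 and 0.11 at 45, 135 and 405 min of Tu.

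Over the 18 samples some members tracked each other more than others. On the log2 CPM scale Smad6 correlated with Tgfb1 at Pearson's r = 0.942, with Id1 at 0.900 and with Id4 at 0.889. Id1 and Id3 correlated at 0.349 and Id3 and Tgfb3 at -0.101. These are descriptions over samples of 6 groups that share the GC axis. The 5 genes most like Id1 over the 18 samples were Fam129b (0.968), Ptk7 (0.968), Ehmt2 (0.968), Mrc2 (0.967) and Galntl4 (0.967), all with transcripts of 56.4% to 60.8% GC, against 54.7% for Id1.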

How the data were processed

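The 18 samples were sequenced by the authors from poly(A) RNA on an Illumina HiSeq, and the reads were aligned to mm9 and assigned to RefSeq genes in DNAnexus. The aligner, the counter and its use of strand are not given in the sources used here. The authors' methods name 2 ways of preparing libraries, and the labels do not say which sample had which. The estimated counts deposited per gene were not normalized and carry 4 significant digits, and 17.7% to 23.2% of those under 1000 were not whole. The authors also deposited an RPKM, scaled by gene length and sample total, which served here for levels between genes. A score (the RPKM centred and divided by its SD over genes) and a signal (the RPKM over its root mean square), also made by the authors, were not used. Genes were joined by name, since 741 of the 20207 had other coordinates in some files.

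After rounding the estimated counts, each pair of groups was fitted on its own in edgeR 4.0.16 (R 4.3.3) by the quasi-likelihood test with TMM factors. The Benjamini-Hochberg adjustment ran over 12731 genes, those with a count of at least 1 in all 18 samples, and genes under 0.05, the rate in the authors' methods, were called. The standard error (SE) is the log2 fold change over the root of its F statistic. CPM values of single samples were scaled by TMM over all 18 samples, and fold changes within their comparison. No source used here says whether the 3 samples of a group were separate cultures, so p-values measure the spread between these samples, which may be technical. Counts of replicates differed by more than counting noise (chi-square per degree of freedom of 15.1 to 824), so no file was treated as a copy of another, which does not show that they were separate cultures.

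The 10 genes and the pathway lists were chosen with earlier results of these data known. Against the control, members past the threshold or changed by at least 0.5 on the log2 scale were given singly. Between stressed groups, those past the threshold there or against the control were named, and of each pathway list the 2 genes of lowest p-value in either direction, of which some are not reported here. Same-numbered samples deviated together in 1 of the 10 comparisons, Tu at 135 min against the control, with correlations of at least 0.284, so the pairing comes from the data there and not from the labels.

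Alternatives were a filter of 1 read in any compared sample, filterByExpr, the exact test of edgeR, DESeq2 1.42.0 (its Wald test, and its size factors in edgeR), no TMM, 1 fit of the 6 groups together, blocking on the replicate number, an offset for GC content (lowess, span 0.3) with and without that block, and each sample left out in turn. GC content came from GENCODE transcripts for 12443 genes tested (97.7%). The fits were first tested on simulated data. Python 3.11.15, numpy 2.4.6, pandas 2.3.3, scipy 1.17.1 and matplotlib 3.10.9 served for the rest.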

Additional observations from a re-analysis of the deposited data

Results flagged for a closer look

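For 5 of the 10 genes the level at 405 min of tunicamycin differed from that at 135 min by a direct test. It was edgeR's quasi-likelihood test, adjusted over all genes tested, and equals a difference between the changes of both times against the control. The log2 changes were -2.23 for Tgfb3, -1.52 for Id4, -0.96 for Id1 and -0.92 for Tgfb1, all lower at 405 min, and 0.89 for Id3, higher at 405 min. The change of Id3 kept its sign in every fit that left out 1 sample, from 0.71 to 1.23, and passed the threshold only without sample 1 of 135 min. Groups of 3 samples were not searched for single samples far from the others.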

How the results depend on the processing

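The direction was kept under every alternative in 43 of the 46 log2 fold changes of members given singly. The exceptions did not pass the test: Smad7 between 135 and 45 min of HS (0.20) became -0.049 without HS 45 min replicate 3 and -0.01 without HS 135 min replicate 2 (up to 0.543 with 1 sample left out), Id2 between 135 and 45 min of Tu (-0.12) became 0.14 with the GC offset and 0.10 with the offset and the replicate block, and Id2 between HS and Tu at 45 min (0.17) became -0.11 with total counts without TMM. Without TMM the median of all genes moved from -0.03 to -0.19 at 45 min of HS, from -0.02 to -0.19 at 135 min of HS, from -0.00375 to 0.10 at 45 min of Tu and from -0.05 to -0.33 between HS and Tu at 45 min.

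The number of members called depended on the test. At 45 min of HS it was 0 and became 6 with the exact test, 6 with DESeq2 and 9 with the shared fit of all 6 groups. At 135 min of HS it was 1 and became 2 with at least 1 read in 1 compared sample, 5 with the exact test, 5 with DESeq2, 0 with total counts without TMM, 7 with the shared fit and 6 with the GC offset. At 45 min of Tu it was 2 and became 4 with DESeq2, 3 with total counts without TMM, 1 with the shared fit and 4 with the GC offset. At 135 min of Tu it was 0 and became 3 with the exact test, 3 with DESeq2 and 1 with the shared fit. At 405 min it was 5 and became 3 with the shared fit, which lost Id2 and Id4. With the GC offset, with or without the replicate block, 2 were called there as higher and 4 as lower. Between 405 and 135 min of Tu it was 5 and became 8 with total counts without TMM. The exact test, DESeq2 and the GC offset, with or without the block, each called 1 as higher and 5 as lower there. The shared fit called 0 as higher and 4 as lower, and so lost Id3. Between HS and Tu it was 0 at both times, and became 2, 4, 4 and 1 at 45 min with the exact test, DESeq2, the shared fit and the GC offset, and 1 and 1 at 135 min with the exact test and the shared fit. The cause was not tested. Over all genes, the calls at 45 min of HS went from 0 higher and 0 lower to 251 and 39 with the exact test, 386 and 65 with DESeq2 and 925 and 420 with the shared fit, and at 135 min from 605 and 336 to 1164 and 821, 1232 and 927, and 1829 and 1414.

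With 1 sample left out the count was 0 to 10 at 45 min and 0 to 5 at 135 min of HS, 0 to 3, 0 to 0 and 4 to 6 at 45, 135 and 405 min of Tu, 0 to 0 between the HS times, 0 to 1 and 4 to 8 between successive Tu times, and 0 to 7 and 0 to 0 between HS and Tu at 45 and 135 min. Blocking on the replicate number, a pairing by number only, gave 0 calls at 135 min of HS, and 0 with the GC offset too. At 45 min of Tu the block gave 0 calls, but 2, both higher, with the GC offset. The Id3 change from 135 to 405 min of Tu had an adjusted p of 0.0507 with the block (edgeR). The block without the offset changed no other member call. Same-numbered samples correlated at -0.158 on average for HS at 135 min and at -0.169 for Tu at 45 min. With 3 samples a group, low levels limit Bmp4 most, at 2 to 31 estimated reads a sample.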
